A study of Homo sapiens and Mus musculus with 92 samples.

Results

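The glycolysis and hypoxia response genes were 35 named genes of the 28103 gene symbols counted by RNA-seq in HEL cells, taken as the rows whose symbol matches a named list. They comprised 17 glycolytic enzymes, 4 glucose and lactate transporters, 5 hypoxia-inducible factor (HIF) subunits and oxygen sensors, and 9 classical HIF target genes. HEL is an established human erythroleukemia cell line without rearranged MLL1, which the labels describe as erythroblasts. The study asked which genes depend on MLL1, a histone methyltransferase encoded by KMT2A, and on AF9, a chromatin reader encoded by MLLT3. In the MLL1 experiment, 3 libraries of MLL1 KD cells were compared with 3 libraries of control cells. In the AF9 experiment, 2 libraries of AF9 KD cells were compared with 2 libraries of their own control cells. Each KD used 1 lentiviral shRNA expressed from the pLKO.1 vector. Control cells, whose genotype is labelled WT, received the TRC control shRNA according to the study's methods, so every library came from transduced cells of the same line. The labels do not say whether replicates were separate transductions or cultures. The p-values therefore measure the spread between these libraries, which may be technical.

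Glycolysis splits glucose into pyruvate in the cytosol, and lactate dehydrogenase then turns pyruvate into lactate, which leaves the cell through monocarboxylate transporters. When oxygen is low, the prolyl hydroxylases encoded by the EGLN genes no longer mark HIF alpha subunits for degradation, and the stabilised factor activates glucose transporters, glycolytic enzymes and genes of angiogenesis, mitophagy and collagen processing. Erythroid cells lean on glycolysis as they mature, because red cells lose their mitochondria. RNA levels alone do not measure HIF protein or glucose flux.

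The total count was 6966345 to 10380241 per library in the MLL1 experiment and 12278989 to 14232408 in the AF9 experiment. Levels are given as CPM (counts scaled to a common library size) scaled by TMM factors. The targeted genes followed their labels. KMT2A was at 1321, 1298 and 1256 CPM in control cells and at 812, 814 and 834 CPM in MLL1 KD cells, 63.5% of control (two-sided exact permutation p = 0.1, the smallest that 3 against 3 libraries allow). MLLT3 was at 547 and 527 CPM in control cells and at 107 and 92.5 CPM in AF9 KD cells, 18.6% of control (exact permutation p = 0.33, the smallest that 2 against 2 allow). By edgeR's quasi-likelihood test, KMT2A in AF9 KD cells had a log2 fold change of -0.32 (adjusted p = 0.02). With offsets for GC content it was -0.21 (adjusted p = 0.0662). MLLT3 in MLL1 KD cells was at -0.28 (adjusted p = 0.615), and at -0.29 (adjusted p = 0.0175) with replicate number as a block. The erythroid factors GATA1, KLF1 and TAL1 and the megakaryocytic genes ITGA2B and FLI1 were expressed in every group. Of the 8 megakaryocytic markers, however, GP1BB and PPBP had group means under 1 CPM throughout, and VWF reached at most 1.23 CPM. Of 6 lymphoid markers, 5 had group means under 1 CPM throughout, as did CD14 and FCN1 among 5 monocytic markers. The monocytic marker LYZ was detected, at group means of 15.4 to 89.4 CPM. Replicate 1 stood apart from replicates 2 and 3 in the MLL1 experiment, in control and KD cells alike, so results of that experiment are also given with replicate numbers as a block and with replicates 2 and 3 alone.

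The members stood at very different levels in control cells. On the scale of TPM (transcript abundance corrected for gene length), with the length of all merged exons, GAPDH was the most abundant member, at 5995 ± 667 TPM (SD, n = 3) in the MLL1 experiment and 4809 ± 264 TPM (n = 2) in the AF9 experiment. ENO1, the main enolase, came next, at 1389 ± 205 and 3282 ± 61.5 TPM. Its range overlapped that of no other member in the MLL1 experiment, whereas LDHB, at 3275 ± 21.2 TPM, overlapped with it in the AF9 experiment. With the length of the canonical transcript instead, ENO1 came before GAPDH in the AF9 experiment, at means of 5053 and 4712 TPM. The 17 glycolytic enzymes together held 0.980% to 1.30% of all TPM in control libraries of the MLL1 experiment and 1.61% to 1.62% in those of the AF9 experiment.

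At the other end, CA9, a carbonic anhydrase used as a marker of hypoxia, had 1 count in 1 control library and 0 counts in the other 9 libraries. ADM, the vasodilator adrenomedullin, had 2 to 17 counts per library. Genes were tested when their mean TPM in the experiment was at least 1, which left 34 members in the MLL1 experiment, without CA9, and 33 in the AF9 experiment, without CA9 and ADM. The oxygen sensor EGLN3, a prolyl hydroxylase, was at 1.65 ± 0.446 and 3.01 ± 0.166 TPM, and EPAS1, the HIF-2 alpha subunit, at 3.85 ± 0.914 and 2.72 ± 0.132 TPM. HIF1A, the HIF-1 alpha subunit, was at 84.9 ± 2.30 and 67.3 ± 1.12 TPM, so it made up 94.4% to 96.4% of the RNA of both alpha subunits in every control library.

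Reads of several members may be shared with near-identical copies. ALDOA, usually the main aldolase, had only 15 to 150 counts per library, and 89.6% of the runs of 31 bases in its canonical transcript were also found in other genes, among them an overlapping gene model. Its level is therefore uncertain. The same share was 75.5% for LDHB, 70.7% for EGLN1, 66.9% for PGAM1, 53.2% for BNIP3, 50.4% for GAPDH, 43.0% for SLC2A3 and 37.2% for TPI1.

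AF9 knockdown went with lower RNA of the glucose transporter SLC2A3 and of genes on the list of HIF targets, while most glycolytic enzymes did not pass the test. That list leaves out the glycolytic enzymes and glucose transporters, groups that HIF also activates, so it does not stand for every HIF target. The median log2 fold change was -0.54 on that list and -0.01 over the 17 enzymes. With offsets for GC content these medians were -0.65 and -0.17, with 7 enzymes above 0 and 10 below. A gene was called when it changed by at least 1.5-fold with an adjusted p below 0.05 by the quasi-likelihood test of edgeR, where p-values were adjusted by the Benjamini-Hochberg method across every gene tested. By this rule 6 of the 33 members were called, 18.2% of those tested beside 13.1% of all 13333 genes. Of them 2 were higher, beside 8.02% of all genes, and 4 were lower, beside 5.06%. At an adjusted p below 0.05 without the fold threshold, 10 members were lower, 30.3% of those tested beside 14.6% of all genes, and 3 were higher, 9.09% beside 14.4%. The median log2 fold change was -0.12 over the members tested and 0.01 over all genes. The members' median rested on single libraries, at -0.25 without KD replicate 1 and -0.02 without KD replicate 2, and it was -0.21 with offsets for GC content, and -0.03 beside 0.10 for all genes with library totals in place of TMM factors. In bulk RNA, fewer cells of a type and less RNA per cell cannot be told apart, and this holds for every result given here. The list of HIF targets was mostly below 0 in the MLL1 experiment too, in 7 of the 8 genes tested there. Its median log2 fold change there was -0.34 without and -0.37 with the replicate block, beside 0.01 and 0.00 for all genes. In the test of the difference between effects, 0 of these 8 genes were called without the block, beside 0.818% of all genes. With the block 2 were called, beside 21.1%. The plot of fold changes shows all members tested in both experiments.

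**Figure D1:**
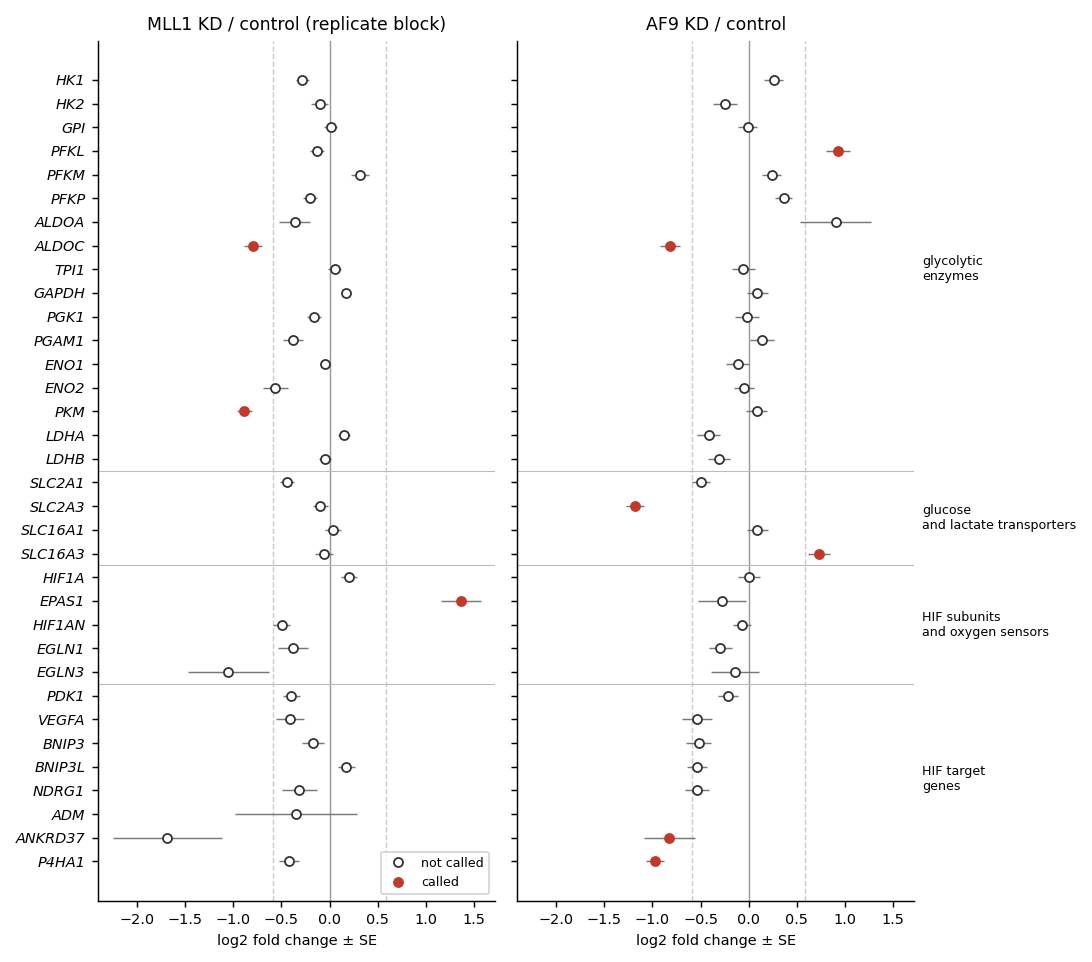
Log2 fold change (KD over control, horizontal axis) with its standard error for each member tested, by role, in the MLL1 experiment with replicate number as a block (left) and in the AF9 experiment (right). Filled points are called at 1.5-fold and an adjusted p below 0.05, and dashed lines mark 1.5-fold; in the AF9 panel all 7 HIF target genes tested lie left of 0.

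Among the 4 transporters, 1 was called lower and 1 higher. SLC2A3, which encodes the high-affinity glucose transporter GLUT3 (chr12:7919230-8019007, minus strand, hg38), was at 383 and 378 CPM in control cells and at 170 and 166 CPM in AF9 KD cells. The groups lay far apart, with KD at 44.1% of control, and the log2 fold change was -1.18 ± 0.09 (SE, adjusted p = 5.6e-06). SLC2A1, the GLUT1 transporter, was at 294 and 299 CPM in control cells and at 218 and 202 CPM in AF9 KD cells. Its groups did not overlap either, but the log2 fold change of -0.50 ± 0.09 (adjusted p = 0.00167) was below 1.5-fold. SLC16A3, the lactate exporter MCT4 (chr17:82217934-82261129, plus strand), was at 56.6 and 71.2 CPM in control cells and at 105 and 106 CPM in AF9 KD cells. Both KD libraries were above both control libraries, with a log2 fold change of 0.73 ± 0.11 (adjusted p = 0.000497). Without control replicate 1 it was below 1.5-fold (0.57, adjusted p = 0.00844), and its call depended on GC content, as given further on. SLC16A1, the lactate transporter MCT1, was not called, with a log2 fold change of 0.09 ± 0.11.

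Among the 17 glycolytic enzymes, 1 was called higher and 1 lower. PFKL, the liver-type subunit of phosphofructokinase (chr21:44300051-44327376, plus strand), was at 148 and 191 CPM in control cells and at 296 and 350 CPM in AF9 KD cells. KD was at 190% of control and the groups did not overlap (log2 fold change 0.93 ± 0.12, adjusted p = 0.000205). ALDOC, the aldolase best known from brain (chr17:28573115-28576948, minus strand), was at 269 and 250 CPM in control cells and at 135 and 160 CPM in AF9 KD cells. It was at 56.8% of control, again with no overlap (log2 fold change -0.82 ± 0.10, adjusted p = 0.000141). LDHA, the lactate dehydrogenase subunit that favours lactate formation, had a log2 fold change of -0.42 ± 0.12 (adjusted p = 0.0193), and PFKP, the platelet-type phosphofructokinase, of 0.36 ± 0.09 (adjusted p = 0.00918), both below 1.5-fold.

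The 13 other glycolytic enzymes did not reach an adjusted p of 0.05. Several abundant ones stayed near 0 on the log2 scale, with GAPDH at 0.09 ± 0.11, ENO1 at -0.12 ± 0.12, PKM at 0.08 ± 0.11, TPI1 at -0.05 ± 0.12 and PGK1 at -0.02 ± 0.13. The abundant LDHB was at -0.31 ± 0.11 (adjusted p = 0.0543), with both KD libraries below both control libraries. With offsets for GC content, described further on, the estimates of GAPDH (-0.26), PKM (-0.04) and PGK1 (0.10) changed sign, still without passing the test. ENO1 (-0.24), TPI1 (-0.30) and LDHB (-0.20) did not pass with these offsets either. ENO2 did reach an adjusted p below 0.05 with them, at -0.29 (adjusted p = 0.0156), below 1.5-fold. The 17 enzymes together held 1.61% and 1.62% of all TPM in control libraries and 1.76% and 1.55% in AF9 KD libraries, so that the KD values lay on both sides of the control values. GAPDH itself was at 2585 and 2830 CPM in control cells and at 2993 and 2759 CPM in AF9 KD cells, and ENO1 at 4049 and 3995 CPM against 4050 and 3373 CPM, so the groups overlapped for both.

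Of the 5 HIF subunits and oxygen sensors, 0 were called after AF9 knockdown by edgeR or by DESeq2. In edgeR 1 of them had an unadjusted p below 0.05, beside 5420 of all 13333 genes. HIF1A was at 79.95 and 82.95 CPM in control cells and at 90.6 and 72.2 CPM in KD cells, which overlap with KD at 99.98% of control. HIF1AN, the asparagine hydroxylase that blocks the HIF transactivation domain, had a log2 fold change of -0.07 ± 0.10, EGLN1 of -0.30 ± 0.12, EGLN3 of -0.14 ± 0.25 and EPAS1 of -0.28 ± 0.25.

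All 7 of the 9 HIF target genes that passed the filter had lower CPM in both AF9 KD libraries than in both control libraries, an order found below control in 33.2% of all genes with 2 against 2 libraries, and the median log2 fold change was -0.54. Of these, 6 had an adjusted p below 0.05 and 2 were also past 1.5-fold. P4HA1, a collagen prolyl 4-hydroxylase subunit (chr10:73007217-73096974, minus strand), was at 386 and 364 CPM in control cells and at 201 and 181 CPM in KD cells. It was at 50.9% of control (log2 fold change -0.97 ± 0.10, adjusted p = 2.7e-05). ANKRD37, a small ankyrin repeat protein (chr4:185396021-185400628, plus strand), was low, at 4.93 and 5.20 CPM in control cells and at 3.32 and 2.39 CPM in KD cells. Its call (log2 fold change -0.82 ± 0.26, adjusted p = 0.0316) was not made by DESeq2, where the adjusted p was 0.136, nor without control replicate 1 (0.140), control replicate 2 (0.135) or KD replicate 2 (0.122), nor with library totals in place of TMM factors (0.0556).

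The mitophagy receptors BNIP3 and BNIP3L were at 267 and 229 CPM and at 438 and 397 CPM in control cells, against 198 and 147 CPM and 308 and 267 CPM in AF9 KD cells. Their log2 fold changes were -0.52 ± 0.13 (adjusted p = 0.00857) and -0.54 ± 0.10 (adjusted p = 0.00193). VEGFA, the angiogenic growth factor, was at 65.9 and 74.4 CPM in control cells and at 38.2 and 58.1 CPM in KD cells (log2 fold change -0.54 ± 0.15, adjusted p = 0.0186). The stress response gene NDRG1 was at 37.8 and 39.8 CPM in control cells and at 28.2 and 25.3 CPM in KD cells (log2 fold change -0.54 ± 0.12, adjusted p = 0.00532). All 4 were lower in both KD libraries, by less than 1.5-fold. PDK1, the kinase that shuts pyruvate dehydrogenase, missed the threshold (log2 fold change -0.21 ± 0.11, adjusted p = 0.148).

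**Figure D2:**
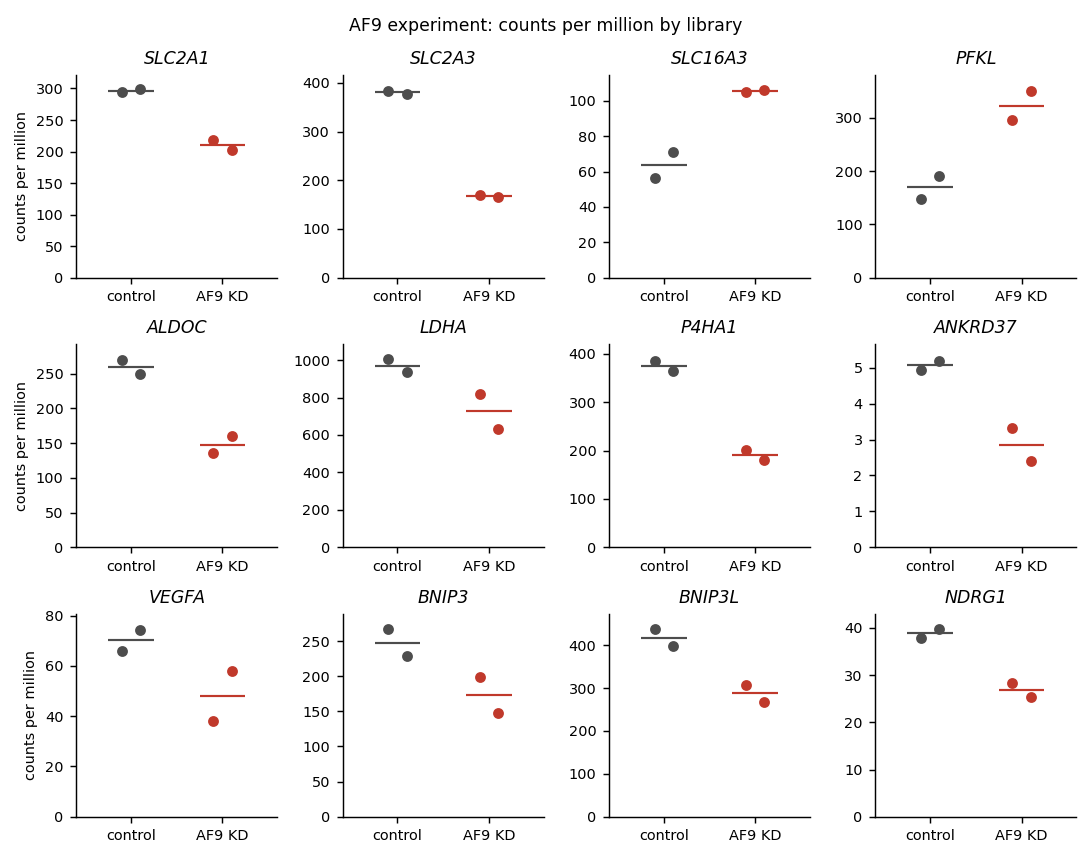
CPM (vertical axis, from 0) of 12 members in the 2 control and 2 AF9 KD libraries of the AF9 experiment, with a bar at each group mean. SLC2A3, P4HA1 and ALDOC are lower and PFKL and SLC16A3 higher in both KD libraries, and the HIF target genes drawn are lower in both.

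Markers of erythroid cells moved in the same comparison. Of 10 erythroid markers, 4 (KLF1, ALAS2, TFRC and EPOR) were higher and 2 (HBG1 and HBG2) lower in AF9 KD cells at an adjusted p below 0.05. With GC offsets 2 were higher (ALAS2 and TFRC) and 4 lower (HBG1, HBG2, TAL1 and KLF1), and KLF1 turned from 0.32 (adjusted p = 0.0189) to -0.36 (adjusted p = 0.0278). The summed level of the 10 was 9941 to 10101 CPM in control libraries and 6913 to 8282 CPM in KD libraries. Most of that sum was HBG1 and HBG2, at group means of 3113 and 4845 CPM in control and 2047 and 3190 CPM in KD cells. The sum therefore mainly reflects these 2 genes and not the other markers. Of 8 megakaryocytic markers, FLI1 and TUBB1 were lower, joined by GP9 with GC offsets (-0.71, adjusted p = 0.00725), with a summed level of 1501 to 1588 CPM in control and 1359 to 1594 CPM in KD libraries, and GP1BB at 0 in every library. Of 5 monocytic markers LYZ was lower (but not with GC offsets, adjusted p = 0.0957), with a summed level of 88.6 to 94.6 CPM in control and 68.6 to 74.9 CPM in KD libraries. Of 5 epithelial markers none of the 3 tested passed, with a summed level of 54.3 to 56.2 CPM in control and 52.4 to 68.8 CPM in KD libraries. Whether these markers have a part in the members' differences was not tested.

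The promoters of 4 of the 6 called members are shown, because HIF binds the core ACGTG or GCGTG. SLC2A3 had no entry in the promoter set used, and SLC16A3 had several start sites and is not shown. The sequences are from RefSeq, on GRCh38.p14, from 250 bases before to 50 bases after the annotated start, 5′ to 3′ on the strand of the gene, and each core match on either strand is in capitals. Where the palindrome CACGTG occurs, it holds a core on both strands, and these overlapping matches are counted separately. The windows are chr17:28576846-28577145 (minus strand) for ALDOC, chr4:185396591-185396890 (plus strand) for ANKRD37, chr10:73096817-73097116 (minus strand) for P4HA1 and chr21:44299803-44300102 (plus strand) for PFKL.
ALDOC: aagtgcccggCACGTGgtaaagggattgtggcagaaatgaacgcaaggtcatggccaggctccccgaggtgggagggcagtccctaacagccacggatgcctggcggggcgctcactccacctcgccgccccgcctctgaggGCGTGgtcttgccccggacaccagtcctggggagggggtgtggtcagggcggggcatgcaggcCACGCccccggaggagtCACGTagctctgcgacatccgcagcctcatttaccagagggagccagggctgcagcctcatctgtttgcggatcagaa
ANKRD37: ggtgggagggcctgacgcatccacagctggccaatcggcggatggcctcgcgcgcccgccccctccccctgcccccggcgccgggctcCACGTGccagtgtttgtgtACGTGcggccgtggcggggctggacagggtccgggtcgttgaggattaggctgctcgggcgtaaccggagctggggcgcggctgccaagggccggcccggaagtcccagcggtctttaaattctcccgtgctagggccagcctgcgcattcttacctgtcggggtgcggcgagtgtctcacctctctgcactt
P4HA1: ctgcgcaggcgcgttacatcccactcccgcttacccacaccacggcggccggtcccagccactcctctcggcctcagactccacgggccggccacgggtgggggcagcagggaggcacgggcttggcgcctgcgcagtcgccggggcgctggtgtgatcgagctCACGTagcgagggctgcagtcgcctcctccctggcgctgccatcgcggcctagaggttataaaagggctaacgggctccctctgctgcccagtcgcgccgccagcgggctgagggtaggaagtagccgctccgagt
PFKL: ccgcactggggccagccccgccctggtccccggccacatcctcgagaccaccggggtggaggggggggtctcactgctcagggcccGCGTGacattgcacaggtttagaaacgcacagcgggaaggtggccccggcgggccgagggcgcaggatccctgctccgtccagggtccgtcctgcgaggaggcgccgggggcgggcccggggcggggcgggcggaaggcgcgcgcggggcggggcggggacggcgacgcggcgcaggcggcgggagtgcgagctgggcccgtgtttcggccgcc

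In these windows ALDOC held 5 core matches, ANKRD37 held 3, and P4HA1 and PFKL held 1 each. The windows of SLC16A3, which are not shown, held 0 to 3. Whether matches go with the direction of change was not tested. The promoter set used here held windows of 300 bases for 30 of the 35 members, with 56 start sites in all. SLC2A3, SLC16A1, VEGFA, BNIP3L and NDRG1 had no such window in that set, which says nothing about their annotation elsewhere. A core was found in 36 of the 56 windows (64.3%), in 6 of 7 windows of HIF target genes (85.7%) and in 48.4% of all 35116 windows. Those 7 windows were of ADM, ANKRD37, BNIP3, CA9, P4HA1 and the start sites of PDK1. They include ADM and CA9, which failed the filter in the AF9 experiment, so they do not stand for the HIF target genes tested there. The windows of members were also richer in G and C, with a median of 68.3% against 58.7% for all windows. A match describes the letters of a window and shows no binding.

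The 2 higher calls of the AF9 experiment changed when the fit was given offsets for GC content. Exon sequences of SLC16A3 and PFKL were the richest in G and C among the members tested, at 66.0% and 64.6%. With a lowess offset for GC content in each library, the log2 fold change of PFKL was 0.31 (adjusted p = 0.0095, below 1.5-fold) and that of SLC16A3 was 0.04 (adjusted p = 0.76). The lower members did not lose their calls, with SLC2A3 at -1.09, ALDOC at -0.99, P4HA1 at -0.81 and ANKRD37 at -0.76. SLC2A1 (-0.60), VEGFA (-0.72) and NDRG1 (-0.65) were called in addition, which made 7 members called, 21.2% of those tested beside 7.99% of all genes. Of them 0 were higher, beside 3.72% of all genes, and 7 lower, beside 4.27%. Over all genes, 61.3% of called genes were higher without offsets, 46.6% with GC offsets and 76.3% with library totals in place of TMM factors. The HIF target genes tested were below 0 in each of these 3 fits.

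**Figure D3:**
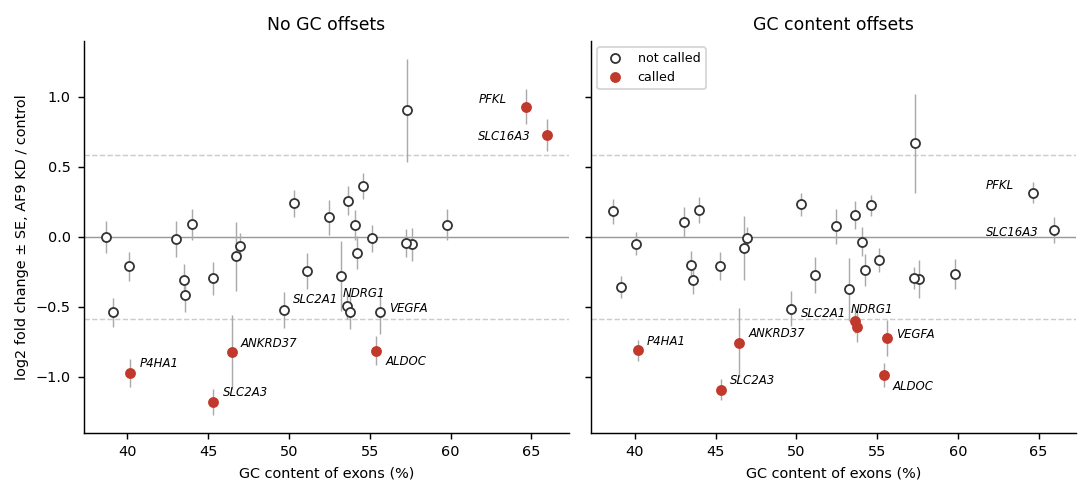
Log2 fold change of AF9 KD over control with its standard error (vertical axis) against the GC content of each gene's exons in percent (horizontal axis), for the 33 members tested, without GC offsets (left) and with them (right). PFKL and SLC16A3, at the right edge, move from 0.93 to 0.31 and from 0.73 to 0.04, while SLC2A3 stays near -1.1.

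The makeup of gene families, as each gene's share of the summed TPM within a library, does not depend on scaling between libraries. The shares are not adjusted for GC content. SLC2A3 made up 53.5% and 54.3% of the RNA of SLC2A1 and SLC2A3 in control libraries of the AF9 experiment and 41.5% and 42.8% in AF9 KD libraries. In the MLL1 experiment the same share was 39.8% to 49.2% in control and 47.1% to 54.3% in KD libraries, which overlap. PFKL made up 34.4% and 40.6% of phosphofructokinase RNA in control and 45.4% and 50.9% in AF9 KD libraries, and SLC16A3 11.5% and 13.9% of the RNA of both lactate transporters in control and 16.9% and 20.3% in AF9 KD libraries. These 2 shifts are limited by GC content. With GC offsets the log2 fold change was 0.31 for PFKL beside 0.23 for PFKM and 0.23 for PFKP. For SLC16A3 it was 0.04, below the 0.19 of SLC16A1. LDHA made up 16.6% and 18.0% of lactate dehydrogenase RNA in control and 15.8% and 16.7% in AF9 KD libraries, so those ranges overlap. HK1 rather than HK2 dominated hexokinase RNA, at 66.7% and 67.6% in control and 72.8% and 76.2% in AF9 KD libraries. With so few libraries no exact test of a share can pass 0.05, and these shares are a description.

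**Figure D4:**
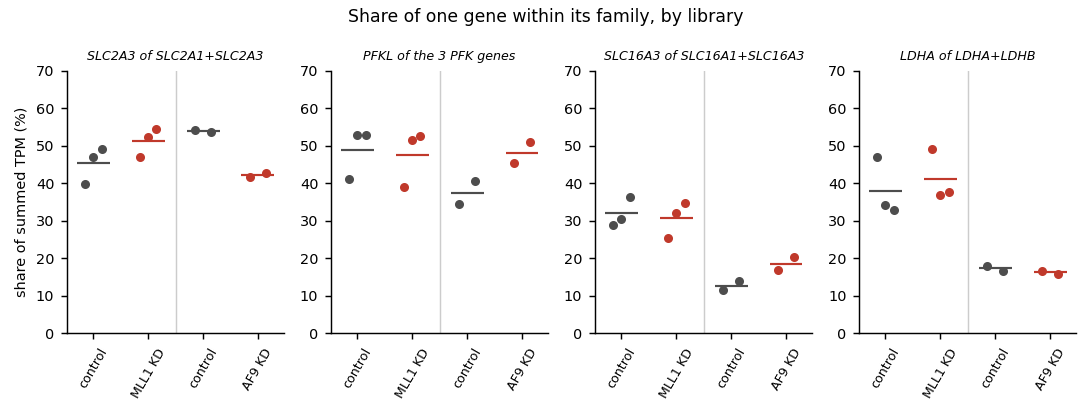
Share of one gene in the summed TPM of its family (vertical axis, percent) in each library of the 4 groups, with a bar at each group mean, and a grey line between the MLL1 experiment (left) and the AF9 experiment (right). The SLC2A3 share is 53.5% and 54.3% in AF9 control and 41.5% and 42.8% in AF9 KD libraries. Shares are not adjusted for GC content.

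In the MLL1 experiment edgeR's quasi-likelihood test without a block called 0 of 34 members, beside 0.0625% of all 14394 genes (0.0278% higher and 0.0347% lower). An unadjusted p below 0.05 was found for 10 members, beside 1435 of all genes. DESeq2, the tool the study used, called 2 members on the same genes, EPAS1 and ALDOC, beside 113 higher and 119 lower of all genes. Fitted on all genes before the filter, it called EPAS1 alone, beside 107 higher and 111 lower of all genes. Same-numbered libraries deviated together in this experiment, and with replicate number as a block 3 of 34 members were called, 8.82% beside 4.73% of all genes. EPAS1 was higher, beside 2.22% of all genes, and PKM and ALDOC were lower, beside 2.51%. The median log2 fold change of the members was -0.18 without and -0.19 with the block, beside 0.01 and 0.00 for all genes, with 25 members below 0 and 9 above in both fits. Without control replicate 1 the median was -0.04, with 20 members below 0 and 14 above, without control replicate 2 it was -0.28, and without KD replicate 2 or 3 it was -0.12 or -0.11.

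EPAS1 (chr2:46293667-46386697, plus strand), whose protein takes the place of HIF-1 alpha at many targets, was at 6.46, 9.41 and 5.98 CPM in control cells and at 11.4, 23.5 and 22.7 CPM in MLL1 KD cells. All KD libraries were above all control libraries, at low counts of 47 to 210, and replicate 1 was the lowest of the KD libraries. The log2 fold change was 1.40 ± 0.33 (adjusted p = 0.206) without and 1.37 ± 0.21 (adjusted p = 0.000213) with the block. EPAS1 was 3.59% to 5.56% of the RNA of both HIF alpha subunits in control and 5.71% to 11.3% in KD libraries.

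PKM, the pyruvate kinase of most proliferating cells (chr15:72199029-72231819, minus strand), was at 1938, 1381 and 1403 CPM in control cells and at 1325, 675 and 667 CPM in MLL1 KD cells. Replicate 1 was the highest of its group in both, and KD replicate 1 was close to control replicates 2 and 3, although still below them. The log2 fold change was -0.82 ± 0.29 (adjusted p = 0.372) without and -0.88 ± 0.08 (adjusted p = 5.5e-07) with the block. ALDOC was at 138, 85.1 and 93.5 CPM in control cells and at 69.9, 53.9 and 56.2 CPM in MLL1 KD cells, again without overlap. Its log2 fold change was -0.81 ± 0.21 (adjusted p = 0.248) without and -0.80 ± 0.10 (adjusted p = 1.9e-05) with the block.

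Leaving out 1 library mattered here. Without KD replicate 1, EPAS1 (log2 fold change 1.67, adjusted p = 0.0417) and PKM (-1.23, adjusted p = 0.0391) were called with no block, beside 28 higher and 25 lower of all genes. Without any other single library no member was called, and 0 of all genes were. With replicates 2 and 3 alone, EPAS1 (1.59), PKM (-1.06) and ALDOC (-0.70) were called, beside 361 higher and 343 lower of all 14425 genes.

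Another 9 members reached an adjusted p below 0.05 with the block at less than 1.5-fold. Over all genes 6.66% were higher and 6.95% lower at that p-value. GAPDH (log2 fold change 0.18) and PFKM, the muscle-type phosphofructokinase (0.31), were higher. HK1 (-0.28), PGAM1 (-0.38), ENO2, the neuronal enolase (-0.56), SLC2A1 (-0.44), HIF1AN (-0.50), PDK1 (-0.40) and P4HA1 (-0.42) were lower. Without the block their adjusted p-values were not below 0.05. ANKRD37 had the largest negative estimate, from 3.62, 0.968 and 2.04 CPM in control cells to 0.693, 0.425 and 0.864 CPM in KD cells, with a log2 fold change of -1.69 ± 0.57 and an adjusted p of 0.057 with the block. Its libraries held 3 to 28 counts in this experiment. GAPDH was at 4061, 3504 and 3573 CPM in control cells and at 4766, 3895 and 3944 CPM in MLL1 KD cells. ENO1 was at 2126, 1745 and 1743 CPM in control cells and at 2117, 1688 and 1646 CPM in KD cells, and the groups of both genes overlapped. PFKL was at 325, 297 and 336 CPM in control cells and at 292, 286 and 297 CPM in MLL1 KD cells. SLC2A3 was at 169, 181 and 182 CPM in control cells and at 174, 160 and 164 CPM in MLL1 KD cells, which overlap.

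Markers moved with the knockdown in this fit as well. With the block, 5 of 10 erythroid markers (GATA1, HBG1, HBG2, ALAS2 and EPOR) were lower in MLL1 KD cells at an adjusted p below 0.05, with a summed level of 2224 to 2262 CPM in control and 1987 to 2043 CPM in KD libraries. Of 8 megakaryocytic markers, PF4 and FLI1 were higher and ITGA2B, GP9 and TUBB1 lower, with a summed level of 1907 to 2303 CPM in control and 1746 to 2296 CPM in KD libraries. Of 5 epithelial markers KRT8 was lower (-0.66, adjusted p = 0.0291), with a summed level of 61.5 to 69.5 CPM in control and 56.1 to 68.2 CPM in KD libraries. The part of these markers in the members' differences was not tested.

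Counted without a test, 11 of the 34 members had all MLL1 KD libraries on one side of all control libraries, 3 above and 8 below. That is 32.4% of them, beside 17.7% of all genes, of which 8.64% lay above and 9.08% below. The 3 above were PFKM, HIF1A and EPAS1, and the 8 below were ALDOA, ALDOC, ENO2, PKM, HIF1AN, PDK1, ANKRD37 and P4HA1. In the AF9 experiment 21 of 33 members had groups that did not overlap, 63.6% beside 66% of all genes (32.8% above and 33.2% below), a share near the background.

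Members also differed between replicate 1 and replicates 2 and 3 of the MLL1 experiment. In replicate 1, 17 of the 34 members tested were above both other replicates in control cells and also in KD cells, beside 31.1% of all genes, and 4 were below both in each, beside 30.7%. These counts have no test. PGAM1 was 1.95 times the mean of replicates 2 and 3 in control cells and 2.49 times in KD cells, PFKP 1.85 and 1.99 times, LDHA 1.88 and 1.81 times, and TPI1 1.56 and 1.83 times. BNIP3L went the other way, at 0.612 and 0.573 times, and NDRG1 at 0.698 and 0.445 times. VEGFA split by group, at 0.973 times in control cells and 0.474 times in KD cells, where replicate 1 was at 45.2 CPM and the others at 87.5 and 103 CPM. The labels give no batch or date, so what sets replicate 1 apart was not tested.

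**Figure D5:**
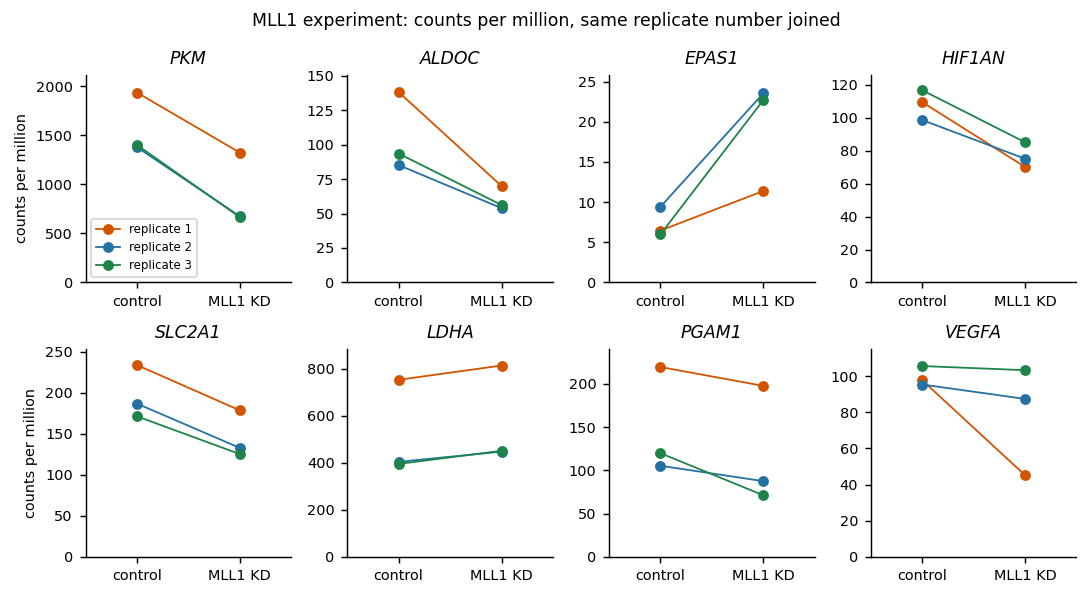
CPM (vertical axis, from 0) of 8 members in the libraries of the MLL1 experiment, with control and KD libraries of the same replicate number joined by a line. Replicate 1 lies above replicates 2 and 3 for PKM, ALDOC, SLC2A1, LDHA and PGAM1 in both groups, and the joined lines of PKM, ALDOC and SLC2A1 all slope down.

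The log2 fold changes of both knockdowns were set against each other in 1 fit over the 10 libraries. In this contrast the knocked-down gene cannot be told apart from the experiment or its control set. Knockdown depth differed too, with KMT2A at 63.5% and MLLT3 at 18.6% of control. SLC2A3 was at 94.5 TPM in MLL1 control, 223 TPM in AF9 control and 106 TPM in AF9 KD cells. PFKL was at 138, 80.8 and 166 TPM in the same groups. The AF9 effect minus the MLL1 effect was below 0 for SLC2A3, at -1.09 ± 0.14 (adjusted p = 0.0164), and above 0 for PFKL, at 1.05 ± 0.19 (adjusted p = 0.0445). These 2 of 34 members (5.88%) were called for the difference, beside 0.818% of all 14433 genes (0.319% higher and 0.499% lower). For SLC2A3 the difference had an adjusted p of 0.0243 with GC offsets, and for PFKL of 0.246, at 0.50. Both calls depended on the libraries at hand, since without either AF9 control library or either AF9 KD library neither was called, with adjusted p-values of 0.0833 to 0.302 for PFKL and 0.0833 to 0.172 for SLC2A3. PFKL was also not called without any MLL1 control library or without MLL1 KD replicate 2 or 3 (adjusted p 0.0598 to 0.12), and SLC2A3 not without MLL1 control replicate 2 (0.0628) or 3 (0.067).

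For ALDOC, lower in both comparisons, the difference between the effects was -0.01 ± 0.29 (adjusted p = 1), an interval that leaves room for an unequal effect. For P4HA1 it was -0.56 ± 0.16 (adjusted p = 0.126), for PKM 0.90 ± 0.39 (adjusted p = 0.306) and for EPAS1 -1.69 ± 0.48 (adjusted p = 0.129), so none of these was shown to differ between knockdowns without the block. With the block 14 members were called, 9 higher and 5 lower, 41.2% beside 21.1% of all genes (10.7% higher and 10.4% lower), and these included PKM (adjusted p = 2.7e-05), EPAS1 (0.00192) and P4HA1 (0.00335). When libraries were scaled by total counts, the median difference of all genes moved from 0.01 to 0.11, and SLC2A3 and PFKL were still called.

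Among 85 further genes of the same pathways, 60 were tested in the AF9 experiment and 10 were called, 5 higher and 5 lower, 16.7% beside 13.1% of all genes. Of 22 other HIF target genes tested, 10 were lower and 2 higher at an adjusted p below 0.05, beside 14.6% and 14.4% of all genes. Past 1.5-fold, 5 of them were lower and 1 higher, beside 5.06% and 8.02% of all genes. BHLHE40, a transcriptional repressor, had a log2 fold change of -1.14 ± 0.14 (adjusted p = 0.000116), and DDIT4, an inhibitor of mTORC1 signalling, of -1.14 ± 0.22 (adjusted p = 0.00178). AK4, a mitochondrial adenylate kinase (-0.76), INSIG2, a brake on sterol synthesis (-0.78), and LOX, which crosslinks collagen (-0.97), were lower too. MIF, a cytokine, was the 1 called higher, at 1.18, and at 0.34 (adjusted p = 0.093) with GC offsets, its exons being 69.0% G and C.

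Of 10 other isozymes and regulators of glycolysis tested, 1 was called. PKLR, the pyruvate kinase of liver and red cells, was at 22.9 and 26.9 CPM in control cells and at 58.5 and 49.7 CPM in AF9 KD cells (log2 fold change 1.12 ± 0.13, adjusted p = 8.1e-05), and at 0.90 (adjusted p = 0.000413) with GC offsets. Of 13 genes of pyruvate entry into mitochondria, 2 were called higher, and 2 were lower at an adjusted p below 0.05 by less than 1.5-fold, MPC1 (-0.54, adjusted p = 0.0376) and MPC2 (-0.52, adjusted p = 0.00229). PC, pyruvate carboxylase, had a log2 fold change of 0.99 ± 0.16 (adjusted p = 0.000632) and 0.64 with GC offsets. PDK2, a pyruvate dehydrogenase kinase, was at 0.62 and, with GC offsets, at 0.34 (adjusted p = 0.0712). ELOB, a subunit of the ubiquitin ligase that degrades HIF alpha, was at 0.96 ± 0.14 (adjusted p = 0.000337) and 0.81 with GC offsets. Of 7 pentose phosphate genes tested edgeR called 0 at 1.5-fold. At an adjusted p below 0.05 alone, 2 were higher, beside 14.4% of all genes, and 0 lower, beside 14.6%. With GC offsets 1 was higher at that p-value, beside 1623 of all 13333 genes.

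In the MLL1 experiment edgeR called 0 of the 62 further genes tested without the block, with 10 at an unadjusted p below 0.05, beside 1435 of all 14394 genes. With the block 5 were called, 8.06% beside 4.73% of all genes. PFKFB4, which makes the activator of phosphofructokinase (log2 fold change -0.75), MPC2, a subunit of the mitochondrial pyruvate carrier (-0.73), and DDIT4 (-1.13) were lower, and ERO1A, an oxidase of protein folding (0.65), and FLT1, a VEGF receptor (0.59), were higher. DDIT4 was at 117, 281 and 247 CPM in control cells and at 11.0, 201 and 200 CPM in KD cells, so KD replicate 1 was far below the rest. PFKFB4 was at 89.7, 64.6 and 68.6 CPM in control cells and at 46.1, 44.2 and 41.2 CPM in KD cells, with no overlap.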

How the data were processed

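RNA-seq of HEL cells gave 10 libraries in 2 experiments. Per the labels and the study's methods, libraries were poly(A)-selected and strand-specific, and the authors filtered reads with fastp 0.13.1, mapped them to hg38 with HISAT2 2.1.0 and counted them per gene with featureCounts 1.6.1 (versions from the submitters' processing notes). The annotation used is not given in the sources used here. The deposited values are raw counts per gene symbol. Other assays of the series were not used here.

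From these counts, edgeR 4.0.16 (R 4.3.3) was fitted per experiment with TMM factors and the quasi-likelihood test, two-sided, without a block, and over all 10 libraries for the difference between effects (called at an adjusted p below 0.05 alone). Gene length and GC content came from GENCODE version 44, to which 92.4% of symbols were matched, 716 of them through an older symbol. The filter kept genes whose mean TPM was 1 or more. In the MLL1 experiment, deviations from the group means correlated at 0.648, 0.326 and 0.352 between libraries with the same number, so a second fit held the replicate numbers as a block. Replicates 2 and 3 also correlated crosswise, at 0.369 and 0.36. DESeq2 1.42.0, other scalings, filters and folds, GC offsets (lowess span 0.3) and leaving out each library were alternatives, and the scripts were tested on simulated data. Depth sets precision: a gene with few counts has a wide standard error.

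The members and lists were chosen with earlier results of these data known. By rule, values per library or their range are given for members called in either comparison without or with the block or called for the difference without it, for members that fail the filter and for the 2 most abundant, and further pathway genes are named from those called, by the 10 smallest adjusted p-values. Other members with values per library, such as SLC2A1, VEGFA, BNIP3, BNIP3L, NDRG1 and HIF1A, were chosen after their values were seen.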

Additional observations from a re-analysis of the deposited data

Results flagged for a closer look

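The effects of both knockdowns differed for 2 members and 2 further pathway genes, by the test of the difference itself (edgeR's quasi-likelihood test over all 14433 genes). Knocked-down gene, experiment, control set and knockdown depth cannot be told apart in this test. SLC2A3 had a difference, AF9 effect minus MLL1 effect, of -1.09 on the log2 scale (adjusted p = 0.0164), with all AF9 KD libraries below their controls and MLL1 KD libraries overlapping theirs. PFKL had a difference of 1.05 (adjusted p = 0.0445), with both AF9 KD libraries above their controls and MLL1 KD libraries overlapping theirs, and it was not called with GC offsets.

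PKLR had a difference of 1.68 (adjusted p = 0.039). It was at 11.4, 9.68 and 11.7 CPM in control and 7.03, 5.81 and 9.08 CPM in MLL1 KD cells, but at 22.9 and 26.9 CPM in control and 58.5 and 49.7 CPM in AF9 KD cells, so the KD libraries lay below control in one experiment and above it in the other. PKLR was not called for the difference with GC offsets (adjusted p = 0.0702), nor without any one AF9 library (0.108 to 0.296), any one MLL1 control library (0.0562 to 0.114) or MLL1 KD replicate 2 (0.0925). CITED2, a HIF target whose product competes with HIF for its coactivators, had a difference of -0.89 (adjusted p = 0.0445). It was at 504, 551 and 541 CPM in control and 629, 676 and 736 CPM in MLL1 KD cells, but at 155 and 140 CPM in control and 100 and 105 CPM in AF9 KD cells. The 2 effects of CITED2 on their own were 0.36 (adjusted p = 0.30) and -0.52 (adjusted p = 0.00154). CITED2 was not called for the difference with GC offsets (0.0655) or library totals (0.0641), nor without any single library (0.0598 to 0.309) other than MLL1 KD replicate 1 (0.00885). SLC2A3 and PFKL also lost their calls without any one AF9 library.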

How the results depend on the processing

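No member changed sign between the reported fit and an alternative where it was called in either. Members that were not called did change sign, as GAPDH, PKM and PGK1 did with GC offsets in the AF9 experiment, and the marker KLF1 turned from higher to lower there. Of members in the MLL1 experiment (0 higher and 0 lower without a block), 1 was called higher and 1 lower by DESeq2 on the same genes, 1 higher by DESeq2 on all genes, 1 higher and 2 lower with the replicate block, also with GC offsets, and 1 higher and 2 lower with replicates 2 and 3 alone. Leaving out 1 library gave 0 to 1 higher and 0 to 1 lower. In the AF9 experiment (2 higher and 4 lower), 0 were higher with GC offsets, with these and the block, and at 2-fold. There were 7 lower with GC offsets, also with the block, 10 with no fold threshold and 1 at 2-fold. Leaving out 1 library gave 1 to 3 higher and 4 to 8 lower. For the difference (1 higher and 1 lower), DESeq2 called 2 higher and 3 lower, the block 9 and 5, GC offsets 0 higher, the block with GC offsets 5 and 6, replicates 2 and 3 alone 8 and 6, and a block in the MLL1 experiment alone 8 and 5. Leaving out 1 library gave 0 to 4 higher and 0 to 2 lower.

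Over all genes, calls went from 9 to 681 with the block in the MLL1 experiment, from 1744 to 1065 with GC offsets in the AF9 experiment, and from 118 to 3049 with the block for the difference. DESeq2 on the same genes called 113 higher and 119 lower in the MLL1 experiment. Same-numbered libraries of the AF9 experiment correlated at 0.156. With 2 libraries per group both pairs give the same value, so it cannot show whether they share more than a number. A replicate block there called 7 members, with ALDOA added, beside 14.7% of all genes. Replicates 2 and 3 alone and the block in the MLL1 experiment alone were chosen after seeing the data. With canonical transcript lengths the SLC16A3 share became 21.4% and 25.3% in AF9 control and 29.9% and 34.9% in AF9 KD libraries. Depth limits ADM, ANKRD37, EGLN3 and EPAS1, whose counts are low. The causes of these changes were not tested.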

Other observations

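Control cells of the 2 experiments are the same line with the same label, yet several members stood at different levels in them. LDHB was at 521 ± 39.6 TPM (SD, n = 3) in control cells of the MLL1 experiment and at 3275 ± 21.2 TPM (n = 2) in those of the AF9 experiment. P4HA1 was at 68.0 ± 3.25 and 516 ± 26.3 TPM, HIF1AN at 30.1 ± 2.86 and 201 ± 9.75 TPM, ENO2 at 38.8 ± 2.04 and 197 ± 1.22 TPM, and BNIP3L at 89.2 ± 20.9 and 429 ± 33.8 TPM. ALDOA went the other way, at 17.3 ± 0.776 and 2.09 ± 1.23 TPM. LDHA made up 33.0% to 46.9% of lactate dehydrogenase RNA in control libraries of the MLL1 experiment and 16.6% to 18.0% in those of the AF9 experiment. Experiment and control set cannot be told apart here, and no test was run between them.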
